A study of Nicotiana tabacum with 15 samples.

Results

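The expression level of root genes common to both hybrids was set against that of all their parents. The comparison took the 6 hybrid libraries of 2 genotypes and the 9 parental libraries of 3 genotypes, which are all 15 libraries of the series. Each genotype was given the same weight within its side, so that the mean of 2 hybrid genotype means was compared with the mean of 3 parental genotype means. The hybrids were GJ, from G70 crossed with Jiucaiping No.2, and KJ, from K326 crossed with the same male line. The parents were the female lines G (G70) and K (K326) and the male line J (Jiucaiping No.2, JCP in the deposited labels). All were untreated tobacco (Nicotiana tabacum) at the seedling stage, with 3 libraries per genotype. J is the father of both hybrids, so GJ and KJ share a parent and are not independent of each other, and the study had selected them from a larger set of crosses for their heterosis. The labels give young root as the tissue while the sample titles name leaf, and the study describes roots. No table at hand pairs the gene models with names, so the tissue could not be checked against root or leaf markers. Whether a library came from 1 plant or from a pool is not stated, so p-values measure the spread between these genotypes or libraries.

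An F1 hybrid carries 1 gene set from each inbred parent, and heterosis is its gain over the parents in growth or yield. Expression of a gene in the hybrid may lie at the mean of the parents, at the level of 1 parent, or outside the range of the parents, the last of which is called overdominant. In roots, auxin directs the initiation and elongation of lateral roots, and salicylic acid is known best for its part in defence. The gene models are listed here by their identifiers, each of which begins with Nitab4.5_ followed by a block number and a gene number within that block.

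The deposited values are FPKM, in which the reads of a gene are scaled by its length and by the mapped reads of the library. No read counts come with them, so the counting error of a gene is unknown. The FPKM of a library summed to 801594 to 819228 in the hybrids and 818587 to 827438 in the parents, so FPKM cannot be told apart from a TPM scale over part of the features. Of 69500 gene models, 37232 reached 1 FPKM in at least 3 libraries and were tested on the log2(FPKM + 1) scale, where the pseudocount of 1 understates the change of genes with low expression. Replicates of a genotype correlated at 0.915 to 0.983 across these genes. G replicate 1, J replicate 2 and K replicate 2 stood apart together. Across genes, their deviations from their own genotype means correlated at 0.546 to 0.595, and their scores on the second principal component were 27.6 to 52.0, against -71.5 to 3.73 in the other 6 parental libraries. GJ replicate 1 scored 62.1 on the first component, against 23.0 and 22.6 in the other GJ libraries. KJ replicate 1 had the lowest summed FPKM of the 15 libraries. The labels name no batch, and results are therefore also given without these libraries where the count or call rests on them.

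The hybrids differed from the parents in both directions. In total, 656 genes (1.76% of those tested) were up-regulated and 703 genes (1.89%) were down-regulated in the hybrids, together 3.65%, taking an adjusted p up to 0.05 and a log2 fold change of 1 or more in either direction. These calls came from the moderated test of limma on the 5 genotype means, with Benjamini-Hochberg adjustment over all tested genes. The median log2 fold change was 1.41 for the up-regulated genes and -1.27 for the down-regulated genes. A log2 fold change of at least 3 in size was found in 12 of the up-regulated and 10 of the down-regulated genes. In 87 up-regulated genes every parental mean was below 1 FPKM, and in 68 down-regulated genes both hybrid means were below 1 FPKM.

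**Figure D1:**
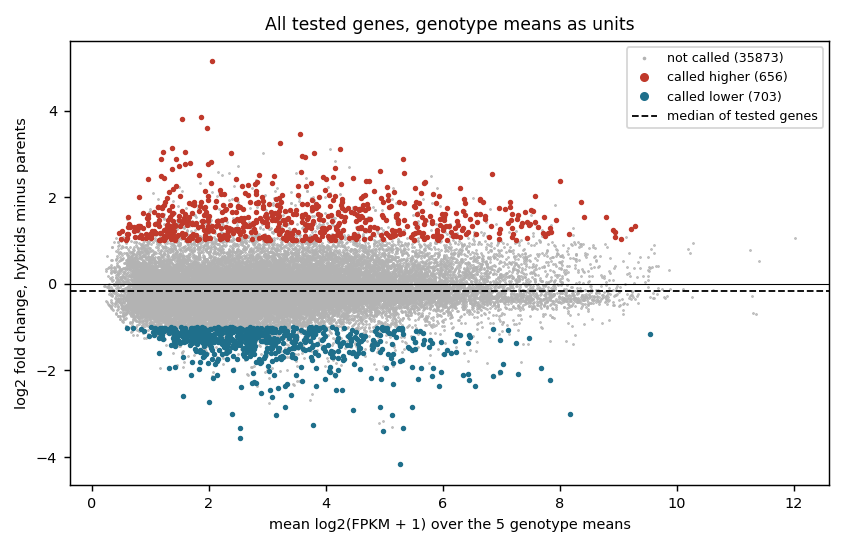
Log2 fold change of each tested gene, hybrids minus parents (y axis), against its mean log2(FPKM + 1) over the 5 genotype means (x axis). Red points are the 656 up-regulated genes, blue points the 703 down-regulated genes, grey points the genes not called, and the dashed line at -0.16 is the median of all tested genes.

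The calls lay close to the threshold, since the smallest adjusted p of any gene was 0.0126 with 5 genotype means, and 13630 genes had an unadjusted p of at most 0.05. Without GJ replicate 1, 60 genes were up-regulated and 20 down-regulated. Without K replicate 2 these counts were 73 and 41, without G replicate 1 191 and 108, without G replicate 2 348 and 287, without KJ replicate 3 328 and 296, and without KJ replicate 2 423 and 374. Without J replicate 2, 452 genes were down-regulated. With the 3 parental libraries that stood apart left out together, 13 and 4 genes were called. In that last setting the size of the difference moved little in the genes called with all 15 libraries. All 656 up-regulated genes and all 700 of the down-regulated genes that were still tested kept their direction. Of them, 555 and 540 kept a log2 fold change of at least 1 in size, and the medians were 1.29 and -1.18. These genes were chosen on values that include the libraries kept, so that choice favoured their direction and size. With the 15 libraries as units in place of the 5 genotype means, limma called 1126 genes up-regulated (3.02%) and 1280 down-regulated (3.44%), among them 650 and 701 of the genes called from genotype means. With libraries as units and the same 3 libraries left out, the counts were 923 and 1221.

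**Figure D2:**
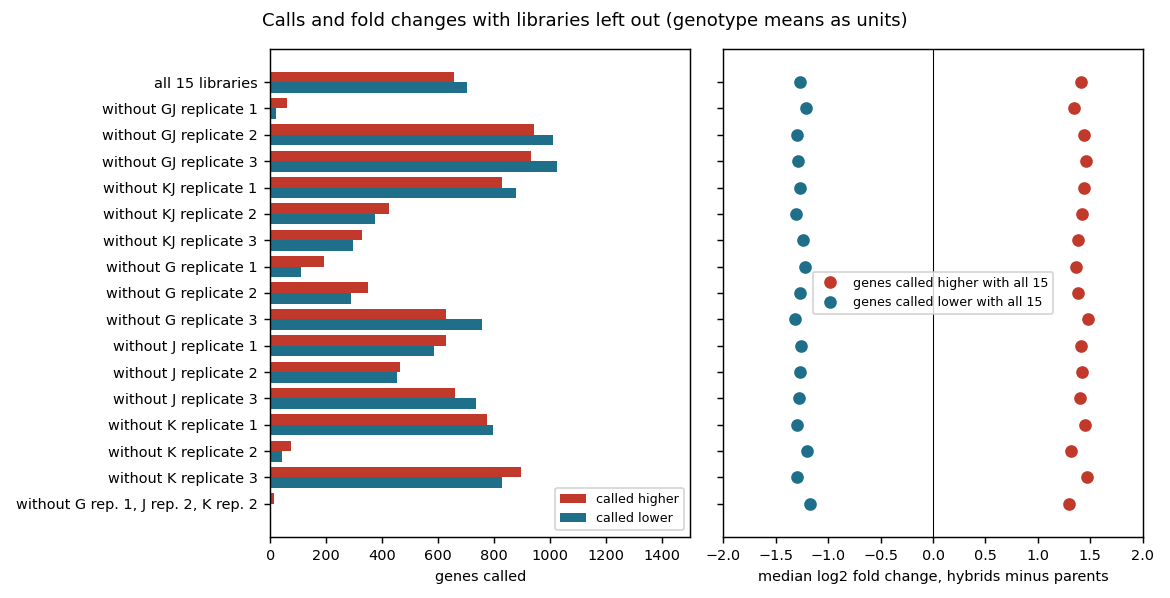
Number of genes up-regulated and down-regulated in the hybrids when single libraries or the set of 3 libraries that stood apart were left out, beside the median log2 fold change of the genes called with all libraries. The counts fell to 60 and 20 without GJ replicate 1 and to 13 and 4 without the set of 3, whereas the medians without that set were 1.29 and -1.18. The medians are those of genes chosen with all libraries, a choice that favours their size.

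Across all tested genes the hybrids lay slightly below the parents on the deposited scale. The median log2 fold change was -0.16, with -0.08 in GJ and -0.23 in KJ when each hybrid was set against the same 3 parents. Only 35.3% of tested genes had a positive log2 fold change. The balance of the calls depended on this shift. After median-of-ratios scaling, which moved the median to 0.000871, 724 genes were up-regulated and 283 down-regulated, so that 71.9% of the calls were rises, against 48.3% on the deposited scale. After quantile normalization 671 and 315 genes were called. A change of direction in all genes together therefore cannot be told apart from a difference of scale between the libraries.

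The separation of individual libraries was counted without a model. All 6 hybrid libraries lay above all 9 parental libraries for 1001 genes (2.69%) and below them for 2876 genes (7.72%). Among the called genes, 368 of 656 up-regulated genes (56.1%) lay above in all libraries, against 2.69% of all tested genes. Of the 703 down-regulated genes, 441 (62.7%) lay below in all libraries, against 7.72%. The calls came from these same libraries, so higher shares follow from that choice and are no further evidence. On the level of genotype means, both hybrids lay above all 3 parents for 6369 genes (17.1%) and below them for 14656 genes (39.4%). After median-of-ratios scaling, 2198 genes lay above and 1634 below in all libraries, so the larger number of genes below was tied to the scale.

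The hybrid-parent contrast took the largest part of the variation among the 5 genotypes. Over tested genes, 59.7% of the sum of squares between genotypes lay between hybrids and parents (1 degree of freedom), 15.9% between GJ and KJ (1 degree of freedom) and 24.4% among the 3 parents (2 degrees of freedom). Per degree of freedom and gene this was 0.361 for hybrids against parents, 0.0959 for GJ against KJ and 0.0739 among parents. The part expected from the spread within genotypes was 0.0428, which is the mean variance within genotypes divided by the 3 libraries of a genotype mean. Without the 3 libraries that stood apart, the shares were 53.8%, 15.8% and 30.4%. On the first principal component, which took 42.6% of the variance, the hybrids scored 22.6 to 93.9 and the parents -81.5 to 2.34, with no overlap. K replicate 3, K replicate 1 and G replicate 3 were the parental libraries nearest to the hybrids on this component.

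The 2 hybrids did not depart from the parents to the same extent. For the 656 up-regulated genes the median log2 departure from the parental mean was 1.27 in GJ and 1.54 in KJ, and for the 703 down-regulated genes it was -1.06 in GJ and -1.45 in KJ. Both hybrids departed by at least 1 in 497 of the up-regulated and 391 of the down-regulated genes. KJ departed farther than GJ in 478 up-regulated genes (72.9%) and 587 down-regulated genes (83.5%), as descriptions, since both hybrids were compared with the same parents. Over all tested genes KJ lay above GJ in 31.0% and below GJ in 69.0%. The size factors of the median-of-ratios scaling were 0.834 to 0.909 in the KJ libraries and 0.951 to 1.03 in the GJ libraries. The part of this difference of scale in the larger falls of KJ was not tested. In a test of GJ against KJ with libraries as units (163 of all tested genes called, 0.438%), 2 of the up-regulated and 8 of the down-regulated genes differed. Without KJ the fit called 6 genes up-regulated and 20 down-regulated, and without GJ it called 1193 and 1807.

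**Figure D3:**
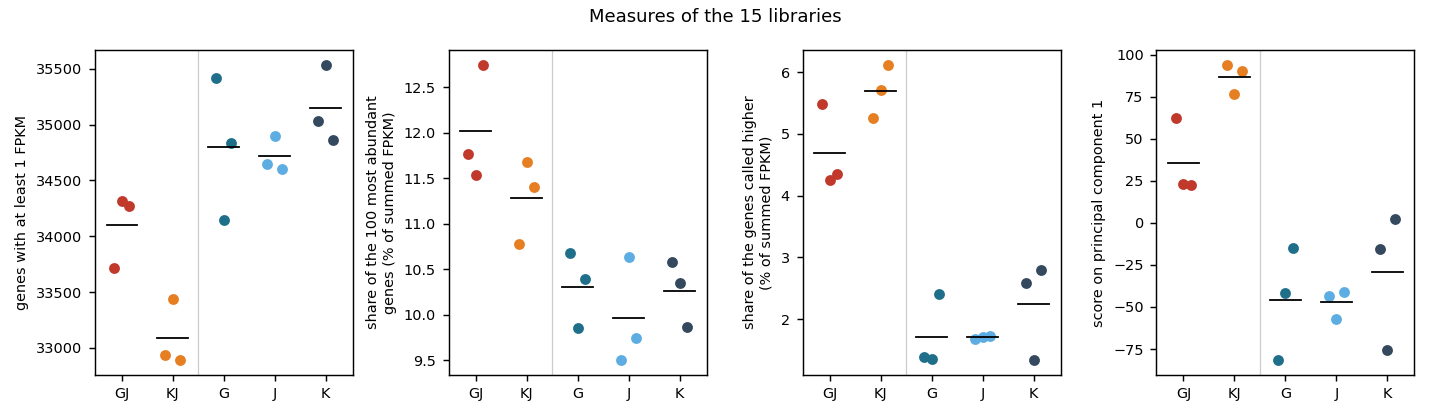
Measures of the 15 libraries by genotype, with a point for each library and a line at the genotype mean: number of genes with at least 1 FPKM, share of summed FPKM in the 100 most abundant genes, share in the up-regulated genes, and score on the first principal component. The up-regulated genes, which were chosen on these values, took 4.26% to 6.12% of the summed FPKM in the hybrids and 1.34% to 2.80% in the parents.

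The called genes were weighed by their abundance, which describes them and is no further test. The 656 up-regulated genes together took 5.20% ± 0.711 of all FPKM in the hybrids (SD, n = 2 genotypes) and 1.89% ± 0.305 in the parents (SD, n = 3 genotypes). The 703 down-regulated genes took 0.712% ± 0.0726 in the hybrids and 2.17% ± 0.210 in the parents. Up-regulated genes were most frequent among abundant genes. Of the 1556 genes with a mean of 100 FPKM or more, 65 (4.18%) were up-regulated and 19 (1.22%) down-regulated. Of the 13269 genes between 1 and 5 FPKM, 184 (1.39%) were up-regulated and 251 (1.89%) down-regulated. The pseudocount holds back the fold change of the low class, so its share of calls is not on the same footing.

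The 100 most abundant genes of a library held 11.7% ± 0.519 of the summed FPKM in the hybrids and 10.2% ± 0.188 in the parents, a difference of 1.47 percentage points. The number of genes with at least 1 FPKM was 33594 ± 716 in the hybrids, with 34100 in GJ and 33088 in KJ, and 34888 ± 227 in the parents. This difference of -1293 genes was -583 after median-of-ratios scaling. By an exact two-sided permutation test over genotypes the difference in either measure had p = 0.1 (adjusted p = 0.167 over 5 measures), and 0.1 is the smallest p that 2 against 3 genotypes allow, so the test cannot reach 0.05. The number of genes above 0 FPKM was 45127 ± 199 in the hybrids and 45071 ± 363 in the parents (exact permutation p = 0.9). The number with at least 50 FPKM was 3247 ± 32.5 in the hybrids and 3261 ± 16.5 in the parents (exact permutation p = 0.6), and this difference changed sign after median-of-ratios scaling and without K replicate 3.

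The largest rises were mostly found in genes that were at or near 0 in the parents. Nitab4.5_0005251g0020 had 52.9, 53.8 and 65.9 FPKM in GJ and 24.1, 21.9 and 16.5 FPKM in KJ, while each of the 9 parental libraries listed it at 0. Nitab4.5_0008647g0010, also at 0 in every parental library, had 10.6, 8.90 and 10.8 FPKM in GJ and 5.10, 5.88 and 4.64 FPKM in KJ. For both genes every GJ library lay above every KJ library, and no fold change is given because the parental level is 0. Both were called by limma (moderated test, Benjamini-Hochberg adjusted p = 0.0285 and 0.0294). GJ exceeded KJ by 1.43 for Nitab4.5_0005251g0020 and by 0.84 for Nitab4.5_0008647g0010 on the log2 scale (limma adjusted p = 0.000174 and 0.00548 with libraries as units).

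Nitab4.5_0001327g0090 ranged from 4.84 to 31.6 FPKM in the hybrids (median 15.2), against 0 to 0.11 FPKM in the parents (median 0). J replicate 1 was the single parental library above 0. The log2 fold change was 3.80 ± 0.18 (SE), with the smallest adjusted p of all genes (0.0126, moderated limma test, Benjamini-Hochberg adjustment). Nitab4.5_0008779g0030 ranged from 3.34 to 36.4 FPKM in the hybrids (median 19.8), against 0 to 0.82 FPKM in the parents (median 0.08). Nitab4.5_0005400g0020 ranged from 1.18 to 18.8 FPKM in the hybrids (median 11.7), against 0 to 0.31 FPKM in the parents (median 0.11). The libraries of hybrids and parents did not overlap for any of these 3 genes, although GJ replicate 2 was the lowest hybrid library for the last 2. Nitab4.5_0014031g0010 ranged from 4.57 to 18.2 FPKM in the hybrids (median 11.2), against 0 to 0.68 FPKM in the parents (median 0.31), again with no overlap. The log2 fold changes of the last 3 genes were 3.85 ± 0.39, 3.14 ± 0.31 and 3.04 ± 0.20 (SE, adjusted p = 0.0294, 0.0294 and 0.0237, moderated limma test, Benjamini-Hochberg adjustment).

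Nitab4.5_0003207g0080 was the only one of the 8 largest rises with a parental mean above 1 FPKM. It ranged from 44.9 to 102 FPKM in the hybrids (median 72.6), against 2.25 to 16.8 FPKM in the parents (median 7.44), and the groups did not overlap. Its genotype means were 71.8 FPKM in GJ and 70.7 FPKM in KJ, against 9.04 in G, 5.30 in J and 11.9 in K. The log2 fold change was 3.11 ± 0.22 (SE, adjusted p = 0.0245, moderated limma test, Benjamini-Hochberg adjustment). This call was lost without K replicate 2, and that of Nitab4.5_0008779g0030 without K replicate 2 or GJ replicate 1. The calls of Nitab4.5_0005251g0020, Nitab4.5_0008647g0010, Nitab4.5_0001327g0090, Nitab4.5_0005400g0020 and Nitab4.5_0014031g0010 were kept whichever single library was left out. With the 3 parental libraries that stood apart left out together, Nitab4.5_0005251g0020, Nitab4.5_0001327g0090 and Nitab4.5_0014031g0010 were the genes named here that were still called.

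**Figure D4:**
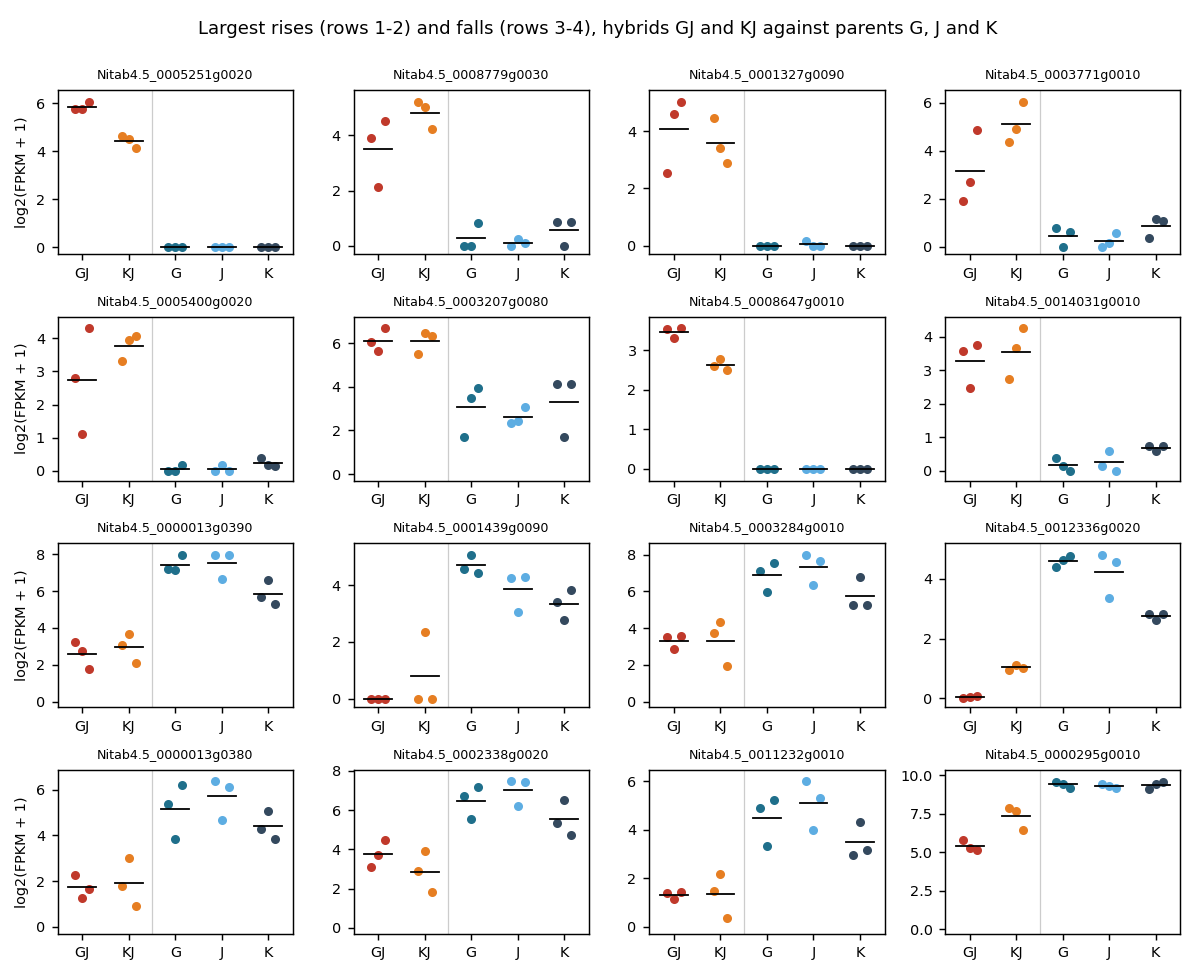
Values of the genes with the largest rises and the largest falls on the log2(FPKM + 1) scale, with a point for each of the 6 hybrid and 9 parental libraries. For every gene shown the hybrid libraries lie on 1 side of the parental libraries, a separation that the choice of these genes required.

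The 8 largest falls were taken among called genes with no overlap of libraries, and so lay in genes expressed in the parents by their choice. Nitab4.5_0000013g0390 ranged from 2.36 to 11.9 FPKM in the hybrids (median 6.56), against 38.6 to 249 FPKM in the parents (median 141), a log2 fold change of -4.17 ± 0.52 (SE, adjusted p = 0.0355, moderated limma test, Benjamini-Hochberg adjustment). Its neighbour in number, Nitab4.5_0000013g0380, ranged from 0.88 to 7.05 FPKM in the hybrids (median 2.35), against 13.4 to 81.4 FPKM in the parents (median 32.4). In both genes the K libraries lay at or below the parental median and still above every hybrid library. Reads shared between close copies could be split by the counting, so the 2 genes may not be separate measurements.

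Nitab4.5_0003284g0010 had a median of 10.6 FPKM in the hybrids (2.78 to 18.8), against 107 FPKM in the parents (37.8 to 251). Nitab4.5_0002338g0020 had a median of 9.88 FPKM in the hybrids (2.5 to 21.0), against 90.2 FPKM in the parents (25.9 to 174). Nitab4.5_0011232g0010 had a median of 1.67 FPKM in the hybrids (0.26 to 3.54), against 18.9 FPKM in the parents (6.71 to 63.1). These 3 genes fell by 3.34, 3.03 and 3.03 on the log2 scale. In each of them J replicate 1 was the highest library and KJ replicate 3 the lowest.

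Nitab4.5_0012336g0020 ranged from 0 to 1.19 FPKM in the hybrids (median 0.495), against 5.15 to 27.1 FPKM in the parents (median 20). The GJ libraries were all at or below 0.05 FPKM and the K libraries lay at 5.15 to 6.04 FPKM, the lowest of the parental values. Nitab4.5_0001439g0090 was listed at 0 in 5 of the 6 hybrid libraries and at 4.15 FPKM in KJ replicate 2, against 5.84 to 32.6 FPKM in the parents (median 18.1). The groups did not overlap for either gene. The calls of the falls were lost without GJ replicate 1 in each case and, except for Nitab4.5_0001439g0090, without K replicate 2, where the adjusted p over all left-out libraries stayed between 0.0240 and 0.0725 (moderated limma test, Benjamini-Hochberg adjustment). The falls of Nitab4.5_0002338g0020 and Nitab4.5_0011232g0010 were also not called without G replicate 1, nor was that of Nitab4.5_0012336g0020 without KJ replicate 3, G replicate 1, G replicate 2 or J replicate 2, or after either rescaling.

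In FPKM, the largest loss was that of Nitab4.5_0000295g0010, which had 55.8, 37.3 and 34.1 FPKM in GJ and 229.7, 207 and 85.3 FPKM in KJ, against 557 to 776 FPKM in the parents (median 696). The 3 parental means lay within 638 to 687 FPKM. The log2 fold change was -3.01 ± 0.53 (SE, adjusted p = 0.0406, moderated limma test, Benjamini-Hochberg adjustment). The log2 difference of GJ minus KJ was -1.92 (limma adjusted p = 0.0167 with libraries as units), so the size of the fall was not common to the hybrids. The call was lost without GJ replicate 1, KJ replicate 3, G replicate 1, G replicate 2 or K replicate 2 and after median-of-ratios scaling (adjusted p = 0.0547).

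Nitab4.5_0000742g0010 ranged from 45.5 to 127 FPKM in the hybrids (median 96.8), against 195 to 751 FPKM in the parents (median 429). Nitab4.5_0003155g0010 ranged from 53.2 to 166 FPKM in the hybrids (median 77.8), against 231 to 442 FPKM in the parents (median 365). Both were lower in every hybrid library than in any parental library, a separation that the choice of the largest losses and gains required. Their log2 fold changes were -2.22 ± 0.33 and -1.95 ± 0.27 (SE). Both calls were lost without GJ replicate 1 or K replicate 2, and that of Nitab4.5_0000742g0010 also without G replicate 1. The largest gains were those of Nitab4.5_0003324g0100, Nitab4.5_0003154g0030 and Nitab4.5_0003623g0010.

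Nitab4.5_0003324g0100 ranged from 432 to 1063 FPKM in the hybrids (median 673), against 53.6 to 257 FPKM in the parents (median 139). Nitab4.5_0003154g0030 ranged from 574 to 1196 FPKM in the hybrids (median 802), against 236 to 534 FPKM in the parents (median 349). Nitab4.5_0003623g0010 ranged from 433.02 to 1131 FPKM in the hybrids (median 583), against 114 to 393 FPKM in the parents (median 210). The GJ mean was above the KJ mean in all 3, but GJ and KJ were not shown to differ (adjusted p = 0.288, 0.355 and 0.562, limma with libraries as units). The log2 fold changes against the parents were 2.37 ± 0.34, 1.20 ± 0.16 and 1.56 ± 0.18 (SE, adjusted p = 0.0359, 0.0359 and 0.0334, moderated limma test, Benjamini-Hochberg adjustment). The call of Nitab4.5_0003623g0010 was lost without G replicate 2 or K replicate 2. The others were lost without GJ replicate 1 or K replicate 2, and Nitab4.5_0003154g0030 also without KJ replicate 3 or G replicate 2.

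Of the 6 genes that the study named as hubs of a co-expression module, 4 were up-regulated, against 1.76% of all tested genes, and the median log2 fold change of the 6 was 1.82, against -0.16 over all tested genes. The study chose them on these samples, so their count is not independent evidence of direction. Nitab4.5_0003282g0020, a protein kinase, ranged from 9.84 to 26.6 FPKM in the hybrids (median 20.1), against 1.41 to 7.31 FPKM in the parents (median 2.07), a log2 fold change of 2.3 ± 0.32 (SE, adjusted p = 0.0359, moderated limma test, Benjamini-Hochberg adjustment). It was the single hub gene of 6 whose hybrid libraries all lay above the parental ones, as in 2.69% of all tested genes. Protein kinases pass signals on by adding phosphate to other proteins. The kinase Nitab4.5_0004384g0070 ranged from 8.99 to 23.5 FPKM in the hybrids (median 19.2), against 1.59 to 9.86 FPKM in the parents (median 2.74). The kinase Nitab4.5_0011528g0020 ranged from 5.64 to 17.2 FPKM in the hybrids (median 13.1), against 1.29 to 7.58 FPKM in the parents (median 2.02). In both, K replicate 3 was the highest parental library and lay within the range of the hybrids.

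Nitab4.5_0000119g0080, a lysine tRNA ligase, which loads lysine onto its tRNA for protein synthesis, ranged from 73.4 to 196 FPKM in the hybrids (median 152), against 22.5 to 88.0 FPKM in the parents (median 31.0). GJ replicates 2 and 3 lay below K replicate 3. Its log2 fold change was 1.87 ± 0.34 (SE, adjusted p = 0.0419, moderated limma test, Benjamini-Hochberg adjustment), and those of the kinases Nitab4.5_0004384g0070 and Nitab4.5_0011528g0020 were 1.92 ± 0.33 and 1.77 ± 0.31. The mitochondrial carrier Nitab4.5_0009232g0030, of a family that moves metabolites across the inner membrane, ranged from 12.2 to 28.0 FPKM in the hybrids (median 20.4), against 5.92 to 15.2 FPKM in the parents (median 7.36). The epimerase or dehydratase Nitab4.5_0002818g0040 ranged from 11.6 to 24.4 FPKM in the hybrids (median 19.9), against 7.19 to 14.8 FPKM in the parents (median 7.55). These 2 genes did not pass the test, with log2 fold changes of 1.10 and 0.93 (adjusted p = 0.0536 and 0.0569, moderated limma test, Benjamini-Hochberg adjustment). Of the 4 calls, each was lost without GJ replicate 1, G replicate 1 or K replicate 2, and those other than Nitab4.5_0003282g0020 also without KJ replicate 3 or G replicate 2 (adjusted p up to 0.0860). That of the lysine tRNA ligase was further lost without KJ replicate 2.

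**Figure D5:**
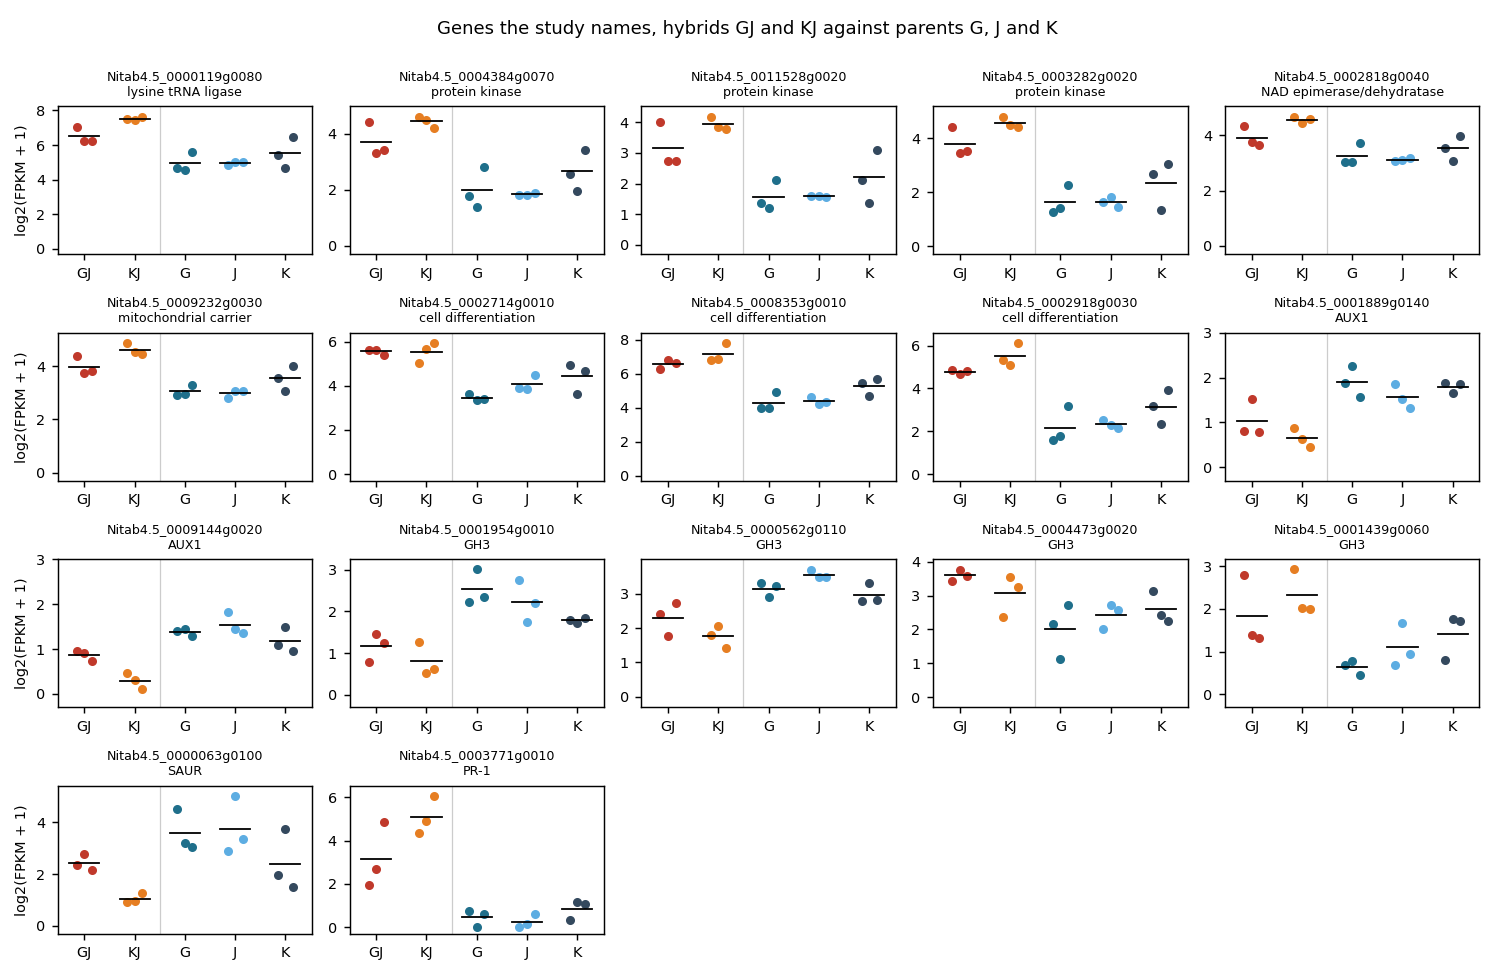
Values of the genes named by the study on the log2(FPKM + 1) scale (y axis), with a point for each library of the hybrids GJ and KJ and of the parents G, J and K. The protein kinase Nitab4.5_0003282g0020, the 3 cell differentiation genes and PR-1 show hybrid libraries above all parental libraries, and the GH3 genes Nitab4.5_0001954g0010 and Nitab4.5_0000562g0110 show them below.

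The 3 genes that the study tied to cell differentiation were all up-regulated (median log2 fold change 2.21), against 1.76% of all tested genes. In all 3 every hybrid library lay above every parental library, as in 2.69% of all tested genes. They were also chosen on these samples. Nitab4.5_0002918g0030 ranged from 24.2 to 67.7 FPKM in the hybrids (median 30.5), against 1.98 to 14.0 FPKM in the parents (median 4.01), a log2 fold change of 2.59 ± 0.36 (SE, adjusted p = 0.0359, moderated limma test, Benjamini-Hochberg adjustment). Nitab4.5_0008353g0010 ranged from 75.1 to 217 FPKM in the hybrids (median 110), against 14.8 to 50.03 FPKM in the parents (median 23.4). KJ replicate 3 was the highest library for both genes. Nitab4.5_0002714g0010 had nearly the same mean in both hybrids, 46.3 FPKM in GJ and 46.8 FPKM in KJ, against 9.99 FPKM in G, 16.3 FPKM in J and 22.0 FPKM in K. The log2 fold changes of the last 2 genes were 2.21 ± 0.34 and 1.56 ± 0.28 (SE). All 3 calls were lost without GJ replicate 1 or K replicate 2, the last 2 also without G replicate 1, and Nitab4.5_0002714g0010 further without KJ replicate 2, KJ replicate 3, G replicate 2 or J replicate 2.

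Of 8 hormone genes, which are part of those the study lists, 1 was up-regulated, 2 were down-regulated and 5 were not called (median log2 fold change -0.85, against -0.16 over all tested genes). Of all tested genes, 1.76% were up-regulated and 1.89% down-regulated. Their identifiers and family names were read from a picture in the study and could not be checked against a table, and they too were chosen on these samples. PR-1 genes encode secreted pathogenesis-related proteins that serve as markers of the salicylic acid response. The PR-1 gene Nitab4.5_0003771g0010 had 2.82, 5.46 and 27.9 FPKM in GJ and 19.4, 29.0 and 65.1 FPKM in KJ, against 0 to 1.22 FPKM in the parents (median 0.51). Hybrids and parents did not overlap, whereas GJ replicate 3 lay above KJ replicate 1. The log2 fold change was 3.60 ± 0.56 (SE, adjusted p = 0.0382, moderated limma test, Benjamini-Hochberg adjustment), lost without GJ replicate 1, G replicate 1 or K replicate 2.

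Of the 7 auxin genes in this list, 2 were down-regulated. GH3 enzymes join auxin to amino acids and so remove it from the active pool. The GH3 gene Nitab4.5_0001954g0010 ranged from 0.44 to 1.74 FPKM in the hybrids (median 1.05), against 2.32 to 7.04 FPKM in the parents (median 3.60). The GH3 gene Nitab4.5_0000562g0110 ranged from 1.66 to 5.57 FPKM in the hybrids (median 2.83), against 5.86 to 12.0 FPKM in the parents (median 8.87). Neither overlapped between the groups, and the log2 fold changes were -1.20 ± 0.25 and -1.19 ± 0.24 (SE, adjusted p = 0.0469 and 0.0460, moderated limma test, Benjamini-Hochberg adjustment). After median-of-ratios scaling the adjusted p was 0.0611 and 0.0574, and both calls were lost without GJ replicate 1, KJ replicate 2, KJ replicate 3, G replicate 1, G replicate 2, J replicate 2 or K replicate 2. The call of Nitab4.5_0001954g0010 was also lost without G replicate 3 or J replicate 1, and that of Nitab4.5_0000562g0110 without GJ replicate 2.

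The other 2 GH3 genes had higher medians in the hybrids but overlapped with the parents. Nitab4.5_0004473g0020 had a median of 10.2 FPKM in the hybrids (4.18 to 12.6), against 4.41 FPKM in the parents (1.16 to 7.86), and was not called on the deposited scale (log2 fold change 0.98, adjusted p = 0.0592, moderated limma test, Benjamini-Hochberg adjustment). After median-of-ratios scaling it passed, with 1.14 and an adjusted p of 0.0491. Nitab4.5_0001439g0060 had a median of 3.04 FPKM in the hybrids (1.5 to 6.60), against 0.75 FPKM in the parents (0.36 to 2.38). Its log2 fold change was 1.03 (limma adjusted p = 0.0647). The 4 GH3 genes thus had log2 differences of both signs.

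AUX1 proteins carry auxin into cells. The AUX1 gene Nitab4.5_0001889g0140 had a median of 0.735 FPKM in the hybrids (0.37 to 1.86), against 2.62 FPKM in the parents (1.52 to 3.80), and its log2 fold change of -0.91 fell short of the fold limit (adjusted p = 0.0449, moderated limma test, Benjamini-Hochberg adjustment). The AUX1 gene Nitab4.5_0009144g0020 had a median of 0.53 FPKM in the hybrids (0.08 to 0.94), against 1.64 FPKM in the parents (0.94 to 2.56). Hybrids and parents touched or overlapped in both genes, and all these levels lie near 1 FPKM, where the pseudocount weighs most. SAUR genes are early auxin-induced genes. The SAUR gene Nitab4.5_0000063g0100 had a median of 2.47 FPKM in the hybrids (0.91 to 5.81), against 8.12 FPKM in the parents (1.82 to 31.1), which did not pass the test (log2 fold change -1.5, limma adjusted p = 0.115). G replicate 1, J replicate 2 and K replicate 2 were the highest parental libraries for SAUR, at 22.0, 31.1 and 12.3 FPKM, and without them its log2 fold change was -0.92.

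Treating libraries in place of genotype means as units added 476 up-regulated and 579 down-regulated genes. The largest falls among them lay in genes that differed between the hybrids, a difference that this way of choosing genes favours. Nitab4.5_0000363g0010 had 0, 0.64 and 0 FPKM in GJ and 78.9, 54.3 and 67.0 FPKM in KJ, against 57.4 to 130 FPKM in the parents (median 88.8). Nitab4.5_0003151g0070 had 0, 0.16 and 0 FPKM in GJ and 45.6, 65.1 and 65.5 FPKM in KJ, against 62.6 to 85.2 FPKM in the parents (median 71.7). The loss of expression was thus seen in GJ libraries alone and was not common to the hybrids, with adjusted p of 0.187 and 0.194 from genotype means (moderated limma test, Benjamini-Hochberg adjustment). The log2 difference of GJ minus KJ was -5.83 and -5.81 (limma adjusted p = 2.24e-07 and 2.5e-10 with libraries as units). Large falls that pass with libraries but fail with genotype means need a wide spread between genotypes of the same side. The p-values of GJ against KJ are therefore not independent of the choice of these genes.

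Nitab4.5_0010461g0020 had 82.5, 12.9 and 25.4 FPKM in GJ and 216, 116 and 71.1 FPKM in KJ, against 0.70 to 78.2 FPKM in the parents (median 3.71). Nitab4.5_0009567g0010 had 28.6, 8.79 and 12.0 FPKM in GJ and 54.4, 47.7 and 36.6 FPKM in KJ, against 0.44 to 23.8 FPKM in the parents (median 1.23). For both, K replicate 3 lay within the range of the hybrids, and GJ replicate 1 stood above the other GJ libraries. Their log2 fold changes were 3.12 ± 0.80 and 3.03 ± 0.74 (SE), and they did not pass the test on genotype means (adjusted p = 0.0607 and 0.0566, moderated limma test, Benjamini-Hochberg adjustment).

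The parent nearest to the hybrids was K for 442 of the 656 up-regulated genes (67.4%), J for 110 (16.8%) and G for 104 (15.9%). Among all 6369 genes with both hybrid means above the parents, K was nearest in 60.4%. For the 703 down-regulated genes K was nearest in 332 (47.2%), J in 209 (29.7%) and G in 162 (23.0%), against 36.7% for K among all 14656 genes with both hybrid means below. K is the mother of KJ alone and J the father of both. The reads were mapped to the genome of K326, the line K, and the part of this choice in the nearness of K was not tested. Without K replicate 2 the shares for K were 81.9% and 68.6%, against 68.8% and 57.6% of all genes with hybrid means above and below. That setting took a library that stood apart from K but kept those of G and J. Dropping all 3 such libraries, which treats the parents alike, gave K shares of 76.4% and 57.5%. The shares for K among all genes with hybrid means above and below were then 67.8% and 43.1%.

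Called genes with neighbouring numbers in the same block of identifiers were counted. Of 462 up-regulated genes with a tested neighbour at an adjacent number, 65 (14.1%) had a neighbour that was also up-regulated, against 607 of 27610 tested genes with such a neighbour (2.20%). Of 527 down-regulated genes, 32 (6.07%) had a down-regulated neighbour, against 744 of 27610 (2.69%). Block Nitab4.5_0000314 held 5 up-regulated genes among 9 tested (log2 fold changes 1.18 to 1.78), and in block Nitab4.5_0008350 all 3 tested genes were up-regulated (1.01 to 1.16). In block Nitab4.5_0000884, 3 of 6 tested genes were down-regulated, with log2 fold changes of -2.84 to -2.11. Neighbours may be close copies that share reads, and whether they do was not tested. No sequence of these gene models was at hand, and none is shown.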

How the data were processed

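Per the labels and the methods of the study, the authors discarded low-quality reads and reads shorter than 25 nt, aligned the remaining reads with the K326 genome and deposited 1 table of FPKM values with 2 decimals, made with RSEM. The processing notes in the labels list HISAT2, StringTie and RSEM, whereas the paper names Tophat2 for mapping, and versions were not given in the sources used here. Depth per library cannot be had from these FPKM values, which carry no counts, so no counting error and no count-based fit was possible.

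Genes reaching 1 FPKM in 3 or more of 15 libraries were kept. Values were taken as log2(FPKM + 1) and averaged within each genotype. A limma fit (3.58.1, R 4.3.3, trend and robust options) of the 5 means compared hybrids with parents by a two-sided moderated test, adjusted after Benjamini-Hochberg. Calls needed an adjusted p up to 0.05 and a log2 fold change of 1 or more in size. A fit with the 15 libraries as units gave the tests of GJ against KJ. Library measures were compared by exact permutation over genotypes. Python 3.11.15 with matplotlib 3.10.9 drew the plots. The fit was also run on simulated data with independent normal noise for each gene. That simulation held no libraries standing apart together and no shift of scale, so it does not cover these features of the data.

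The genes named are 6 hub, 3 cell differentiation and 8 hormone genes of the study. To these come the 8 largest rises, the 8 largest falls and, in FPKM, the 3 largest gains and 3 largest losses among called genes averaging 5 FPKM or more on either side and no overlap of libraries. The 2 largest rises and 2 largest falls called with libraries but not with genotype means complete the list. The members and lists were chosen with earlier results of these data known. Alternatives were another pseudocount (0.1), other filters and scalings, other units, other weights of the parents, a replicate block, and leaving out libraries or genotypes. Fits with libraries as units that also left out libraries or rescaled were chosen after seeing the data. Identifiers could not be paired with gene names, so families, enrichment and sequences were not analysed here.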

Additional observations from a re-analysis of the deposited data

Results flagged for a closer look

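In 96 groups of libraries examined for a single value far from the others, 6 such values were found. The rule flags about 1 in 20 groups by chance if each group follows a single normal distribution. These groups mix genotypes and some hold mostly 0, so that rate is only a rough guide. The gap of the value to its nearest neighbour is given as a share of the whole range of the group. For genes, the gap and the range were taken on the log2(FPKM + 1) scale. KJ replicate 1 was far below the other hybrid libraries in summed FPKM (0.722 of the range) and for Nitab4.5_0004473g0020 (0.641). KJ replicate 2 was the single hybrid library above 0 for Nitab4.5_0001439g0090 (share of 1). Among parental libraries, K replicate 3 was high for Nitab4.5_0011528g0020 (0.507), K replicate 1 was high for Nitab4.5_0005400g0020 (0.547), and J replicate 1 was the single library above 0 for Nitab4.5_0001327g0090 (share of 1).

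The departures of GJ and KJ from the same parents differed by at least 1 on the log2 scale in 4 of the 41 genes named. The test was limma's moderated test of GJ minus KJ with libraries as units, adjusted after Benjamini-Hochberg. It called 163 of all tested genes (0.438%). The genes named were chosen on these data, so the 2 shares are not on the same footing. The rule that chose Nitab4.5_0000363g0010 and Nitab4.5_0003151g0070 also favoured genes that differ between the hybrids. The difference was 1.43 on the log2 scale for Nitab4.5_0005251g0020 (adjusted p = 0.000174), -1.92 for Nitab4.5_0000295g0010 (adjusted p = 0.0167), -5.83 for Nitab4.5_0000363g0010 (adjusted p = 2.24e-07) and -5.81 for Nitab4.5_0003151g0070 (adjusted p = 2.5e-10). All 3 libraries of GJ lay on 1 side of all 3 libraries of KJ in each case.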

How the results depend on the processing

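The counts of up-regulated and down-regulated genes (656 and 703) depended on most choices. They were 7 and 0 with no filter on low values (the 0 beside 15351 genes at an unadjusted p of at most 0.05, limma), 432 and 417 with a mean of at least 5 FPKM, 1077 and 1223 with unadjusted p, 1266 and 2290 with no fold threshold, and 13 and 4 without G replicate 1, J replicate 2 and K replicate 2. They were 1193 and 1807 without GJ, 6 and 20 without KJ, and 0 and 0 without G or without J, where limma gave 10325 and 9430 genes at an unadjusted p of at most 0.05. Without K the counts were 604 and 522. Leaving out single libraries gave 60 to 941 and 20 to 1026. Median-of-ratios scaling gave 283 and quantile normalization 315 down-regulated genes. With libraries as units they were 1126 and 1280, with genotype ignored 1078 and 1246, and with genotype as a random block 994 and 1166. Fits with libraries as units gave 1596 and 817 after median-of-ratios scaling, and 923 and 1221 without the 3 libraries.

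The numbers of replicates did not pair libraries across genotypes, since deviations of same-numbered libraries correlated at -0.46 to 0.55 and 3 of 15 libraries correlated best with their own number. With the replicate block the counts were 1113 and 1273.

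The median log2 fold change was -0.0587 with no filter, 0.000871 after median-of-ratios scaling, -0.0350 after quantile normalization, -0.23 without GJ, -0.0799 without KJ and -0.17 to -0.13 without single libraries. Genes above all parental libraries numbered 2198 and 1812 after the 2 scalings, 2680 without GJ, 2116 without KJ, 1875 without K and 1011 to 1538 without single libraries. Genes below numbered 1634 and 1750 after the scalings, 1750 with a mean of at least 5 FPKM, 8917 without GJ, 5211 without G and 2917 to 4263 without single libraries. By genotype means, 10724 genes lay above after median-of-ratios scaling and 10127 without KJ (5735 to 7188 without single libraries), and 8138 lay below with a mean of at least 5 FPKM (12836 to 15315).

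After median-of-ratios scaling the hybrids exceeded the parents by 426.3 genes with at least 50 FPKM and by 98322 in summed FPKM. Without single libraries the difference in genes above 0 FPKM was -24.1 to 121.5 (-10.7 without G replicate 2), that in genes with at least 50 FPKM -36.7 to 9.11, that in genes with at least 1 FPKM -1403 to -1190, that in summed FPKM -11204 to -7122, and that in the share of the 100 most abundant genes 1.29 to 1.60 percentage points. With libraries as units, the differences of -1293 genes, -9817 FPKM and 1.47 points had an adjusted p of 9.99e-04 (exact permutation over libraries). Libraries of a genotype are not independent samples of hybrids or parents, so this p overstates the evidence. Over genotypes each difference had an exact permutation p of 0.1, the smallest possible here (adjusted p = 0.167). None of the 41 genes named changed direction in any setting run, though every setting uses data on which they were chosen. Of the 30 called, 5 kept their call whichever single library was left out and 3 without the 3 libraries together. The causes of these changes were not tested. With FPKM alone, no limit from depth can be given.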
